A study of Mus musculus with 3 samples.

Results

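The genes described here are 10 genes of fatty acid oxidation and of PPAR signalling, namely Cpt1a, Cpt1b, Cpt2, Angptl4, Pdk4, Acadm, Acadl, Hadha, Plin2 and Ppard. They were chosen by name, as the loci of the deposited gene table that carry exactly that symbol. Of 24401 loci in the table, 9 matched. Cpt1b had no locus of its own, since the table holds it only in a joint locus with Chkb, a choline kinase gene, and it is described apart. Each of the 9 symbols had 1 locus, so no choice between loci was needed.

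The libraries came from C2C12 myotubes, muscle fibres grown in culture from 1 mouse myoblast line, after 72 hours of differentiation with 2% horse serum and 1 µg/ml insulin. All cultures then spent 24 hours in a test medium. The resveratrol library came from myotubes in S2-013 conditioned media with 50 µM resveratrol, the conditioned media library from myotubes in S2-013 conditioned media alone, and the control library from myotubes in DMEM. S2-013 is a human pancreatic cancer cell line, whose medium had been conditioned for 24 hours. No source used here states the serum content of the control and conditioned media during these 24 hours, or the solvent of resveratrol. Resveratrol without conditioned media was not analysed here. Each group held 1 library, so there is no spread between replicates, and no SD, interval or p-value of a difference between conditions could be given.

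Muscle burns fatty acids in its mitochondria. Long-chain fatty acids are activated to acyl-CoA, carried across the mitochondrial membranes as carnitine esters, and shortened there by rounds of beta-oxidation. PPAR receptors are nuclear receptors that bind fatty acids, pair with RXR receptors and raise transcription of genes for fatty acid uptake, storage and oxidation. PPAR-delta is the form best known in skeletal muscle, and Angptl4, Pdk4, Plin2 and Cpt1a are widely used as readouts of its activity.

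Values are the authors' FPKM, a measure of fragments per length of transcript and per size of library, so that levels can be compared between genes. No source used here states how the libraries were scaled to each other. Log2 ratios are of FPKM + 1, a scale on which changes of low genes look smaller. The size rule calls a gene higher or lower if this log2 ratio is at least 1 in size and its mean over the 3 libraries is at least 1 FPKM, which 11858 loci reached. All 9 genes reached it. Their mean levels spanned 12.5 FPKM for Pdk4 to 147 FPKM for Acadl. Acadl was the highest of the 9 in every library, and Pdk4 was the lowest in the conditioned media and control libraries, while Ppard was the lowest in the resveratrol library. Read depth is unknown, so how close neighbouring levels lie against counting error could not be given.

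**Figure D1:**
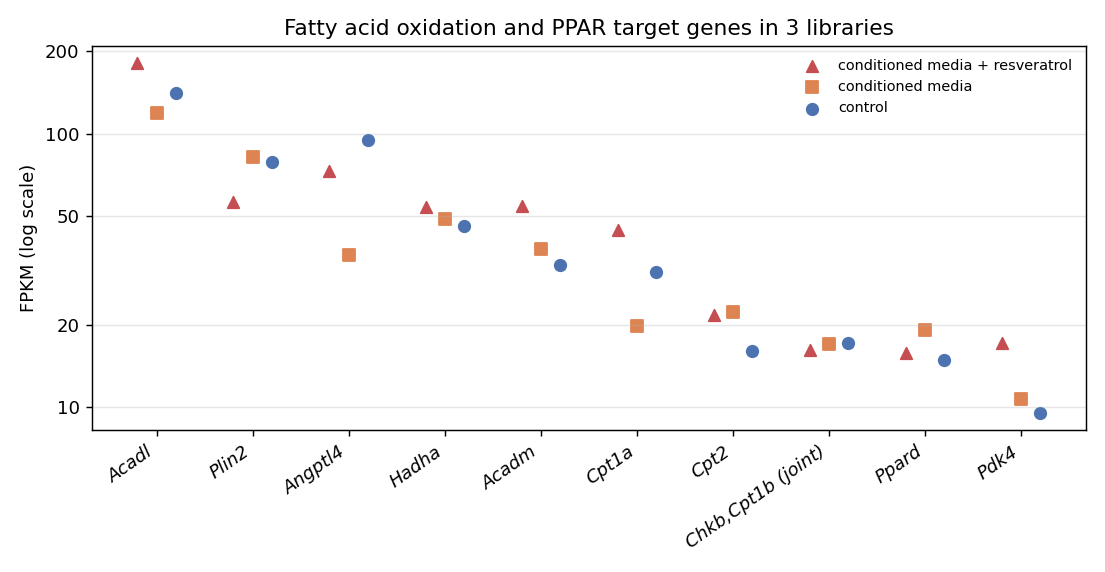
FPKM on a log axis for the 9 genes and for the joint Chkb,Cpt1b locus, in order of mean level; triangles are conditioned media + resveratrol, squares conditioned media and circles control, 1 library each. Angptl4 and Cpt1a stand lowest in conditioned media, at 36.0 and 19.8 FPKM, and the joint locus lies between 16.2 and 17.2 FPKM.

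The outer and inner carnitine palmitoyltransferases, through which fatty acids enter mitochondria, differed between libraries in different ways. Cpt1a encodes carnitine palmitoyltransferase 1A, which sits in the outer membrane, makes acylcarnitine and is the step that malonyl-CoA inhibits. Its locus lies on the plus strand of chromosome 19, positions 3323298 to 3388175 of mm10. Cpt1a stood at 44.3 FPKM in the resveratrol library, 19.8 FPKM in the conditioned media library and 31.3 FPKM in the control library. The resveratrol library was thus the highest and the conditioned media library the lowest. The log2 ratio was 1.13 for resveratrol over conditioned media, which makes Cpt1a higher by the size rule, -0.64 for conditioned media over control and 0.49 for resveratrol over control.

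Cpt2 encodes the inner membrane enzyme that turns acylcarnitine back to acyl-CoA, and lies on chromosome 4, positions 107903982 to 107923589. It stood at 21.7 FPKM with resveratrol, 22.4 FPKM in conditioned media and 16.0 FPKM in control. Both conditioned media libraries were above control and lay close together, with log2 ratios over control of 0.42 and 0.46. The joint locus of Chkb and Cpt1b (chromosome 15, positions 89416405 to 89430108) stood at 16.2 FPKM with resveratrol, 17.1 FPKM in conditioned media and 17.2 FPKM in control. Its highest value was 1.06 times its lowest, and the authors' deposited table calls it in none of the 3 comparisons. Cpt1b is the muscle form of the outer membrane enzyme, and how much of this joint value is Cpt1b and how much Chkb cannot be told apart. Cpt1c, the form best known from brain, was at 7.15 FPKM with resveratrol, 9.58 FPKM in conditioned media and 6.82 FPKM in control.

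The dehydrogenases of the first step of beta-oxidation were highest with resveratrol. Acadl, long-chain acyl-CoA dehydrogenase, lies on chromosome 1, positions 66830839 to 66863309, and stood at 181 FPKM with resveratrol, 119 FPKM in conditioned media and 140 FPKM in control. Conditioned media was the lowest of the 3, as it was for Cpt1a. Acadm, medium-chain acyl-CoA dehydrogenase, lies on chromosome 3, positions 153922353 to 153944643, and stood at 54.3 FPKM with resveratrol, 38.0 FPKM in conditioned media and 33.2 FPKM in control. Here control was the lowest. The log2 ratios for resveratrol over conditioned media were 0.59 for Acadl and 0.50 for Acadm, so neither passed the size rule.

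Hadha encodes the alpha subunit of the mitochondrial trifunctional protein, which carries out later steps of long-chain oxidation. It moved least of the 9, at 54.1 FPKM with resveratrol, 48.6 FPKM in conditioned media and 46.0 FPKM in control, with its highest value 1.18 times its lowest. Hadha lies on chromosome 5, positions 30118304 to 30155162 of GENCODE M21 on the same build. The span the authors give this locus holds 2 other loci, and its exons overlap those of Garem2 on the other strand, so without a stated strand setting some of its reads may belong to that gene. Hadhb, the beta subunit, was at 60.1 FPKM with resveratrol, 45.6 FPKM in conditioned media and 45.8 FPKM in control.

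Of the classical PPAR readouts, Angptl4 differed most. It encodes a secreted inhibitor of lipoprotein lipase, the enzyme that frees fatty acids from circulating triglyceride, and lies on chromosome 17, positions 33774900 to 33783328. Angptl4 stood at 73.0 FPKM with resveratrol, 36.0 FPKM in conditioned media and 94.4 FPKM in control. Control was the highest and conditioned media the lowest, and the resveratrol library lay between them. The log2 ratio was -1.37 for conditioned media over control, the only member past the size rule in that comparison. It was 1.00 for resveratrol over conditioned media, just past the rule, and -0.37 for resveratrol over control.

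Pdk4 encodes a pyruvate dehydrogenase kinase, which switches off the entry of pyruvate into the citric acid cycle when fat is burned, and lies on chromosome 6, positions 5483351 to 5496278. It stood at 17.2 FPKM with resveratrol, 10.7 FPKM in conditioned media and 9.56 FPKM in control. The resveratrol library stood above the other two, with a log2 ratio of 0.64 over conditioned media and 0.79 over control, neither past the size rule. Conditioned media over control gave 0.15. Pdk4 therefore did not share the low conditioned media value of Angptl4 and Cpt1a.

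Plin2 encodes perilipin 2, the coat protein of lipid droplets, and lies on chromosome 4, positions 86647693 to 86670074. It stood at 56.4 FPKM with resveratrol, 82.3 FPKM in conditioned media and 78.9 FPKM in control. It was the one of the 4 readouts with its lowest value in the resveratrol library, with a log2 ratio of -0.54 over conditioned media. Ppard, the gene of the receptor PPAR-delta itself, stood at 15.8 FPKM with resveratrol, 19.1 FPKM in conditioned media and 14.9 FPKM in control. Conditioned media was its highest library, and its log2 ratios of 0.34 for conditioned media over control and -0.26 for resveratrol over conditioned media were below the size rule. Ppard lies on chromosome 17, positions 28232700 to 28301474 in GENCODE M21, and the span the authors give its locus holds 5 other loci.

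The proximal promoters of Cpt1a and Pdk4 are shown because these were the ones of the 4 readouts with their highest value in the resveratrol library, a choice made with the values known. RefSeq promoter windows of the same build (GRCm38.p6), from 250 bases before to 50 bases after the start site, were matched for 8 of the 10 genes, all but Cpt1b and Angptl4. Both are printed 5′ to 3′ on the gene's strand, and capitals mark the PPAR half-site AGGTCA on either strand. The first window is chr19:3323051-3323350 on the plus strand and the second is chr6:5496229-5496528 on the minus strand.
Cpt1a: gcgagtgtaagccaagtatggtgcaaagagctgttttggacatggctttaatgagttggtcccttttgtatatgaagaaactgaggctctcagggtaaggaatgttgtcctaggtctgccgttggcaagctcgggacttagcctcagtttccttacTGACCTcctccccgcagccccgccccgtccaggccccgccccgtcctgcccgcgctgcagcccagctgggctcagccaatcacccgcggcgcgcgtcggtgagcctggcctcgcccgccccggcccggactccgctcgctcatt
Pdk4: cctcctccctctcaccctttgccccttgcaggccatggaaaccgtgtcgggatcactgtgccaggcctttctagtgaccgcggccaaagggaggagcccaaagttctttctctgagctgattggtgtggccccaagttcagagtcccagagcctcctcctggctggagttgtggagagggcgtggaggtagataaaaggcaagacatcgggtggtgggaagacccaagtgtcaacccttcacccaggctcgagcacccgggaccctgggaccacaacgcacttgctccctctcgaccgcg
The Cpt1a window holds 1 half-site, on the opposite strand, at position -94 counted from the start site, and the Pdk4 window holds none. Of the 8 windows, 3 hold a half-site (Cpt1a, Acadm and Plin2), against 16.3% of 32851 promoter windows of the same length. A direct repeat of AGGTCA with 1 base between the copies, the element PPAR and RXR bind as a pair, was searched on both strands with up to 2 mismatches. Only the Plin2 window holds one (chromosome 4, GGACCCCTGACCT as read on the gene's strand, beginning at position -225), against 3.86% of all windows. The half-site of Plin2 is part of this repeat. These are matches of letters in a short window and say nothing of binding or of elements elsewhere in the genes.

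Set against control, conditioned media alone was accompanied by lower Angptl4 and by ratios short of the size rule in the other genes. The largest of those were -0.64 for Cpt1a and 0.46 for Cpt2. Of the 9 genes, 0 were higher and 1 was lower by the size rule, against 1.98% higher and 0.751% lower of the 11858 loci. The median log2 ratio of the 9 was 0.08, with 6 above 0, beside -0.01 over all these loci, of which 48.7% were above 0. Scaling to loci longer than 200 bases turned the median of the 9 to -0.01, with 4 above 0, and that of all loci to -0.09. Without rescaling, the median size of their ratios, 0.23, was close to that of all loci, 0.22. The authors' deposited table calls 3 of the 9 higher (Ppard, Acadm and Cpt2) and 3 lower (Acadl, Angptl4 and Cpt1a), where it calls 25.8% of its tested loci higher and 29.9% lower. Those calls, made by Cuffdiff on 1 library against 1, compare these libraries and not the conditions.

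Set against conditioned media, the resveratrol library had higher Cpt1a and Angptl4 and ratios below 0 for Plin2, Ppard and Cpt2. Of the 9 ratios, 6 were above 0, as were 52.5% of those of all loci. By the size rule 2 of the 9 were higher, Cpt1a and Angptl4, and 0 were lower, against 1.53% and 4.97% of all loci. Angptl4 falls short of the rule when ratios are centred on the median of all loci, at 0.98, and at a pseudocount of 5 FPKM both fall short, with 0.99 for Cpt1a and 0.93 for Angptl4. The median log2 ratio of the 9 was 0.50, beside 0.03 over all loci. The authors' deposited table calls 6 of the 9 higher (Cpt1a, Angptl4, Pdk4, Acadl, Acadm and Hadha), where it calls 34.1% of tested loci higher. It calls 2 lower, Plin2 and Ppard, where it calls 29.5% of tested loci lower, and Cpt2 was not called.

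Against control, the resveratrol library had 0 of the 9 genes past the size rule in either direction, where 3.6% of all loci were higher and 5.25% lower. Pdk4 and Acadm had the largest ratios, at 0.79 and 0.69, and the median of the 9 was 0.36, beside 0.00 over all loci. The authors' deposited table calls 6 higher (Acadm, Acadl, Cpt1a, Cpt2, Hadha and Pdk4), where it calls 34.1% of tested loci higher, and calls 2 lower (Angptl4 and Plin2), where it again calls 34.1%. The 3 comparisons share libraries in pairs, so a low value in the conditioned media library alone, as for Angptl4 and Cpt1a, enters both comparisons that use it with opposite signs.

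**Figure D2:**
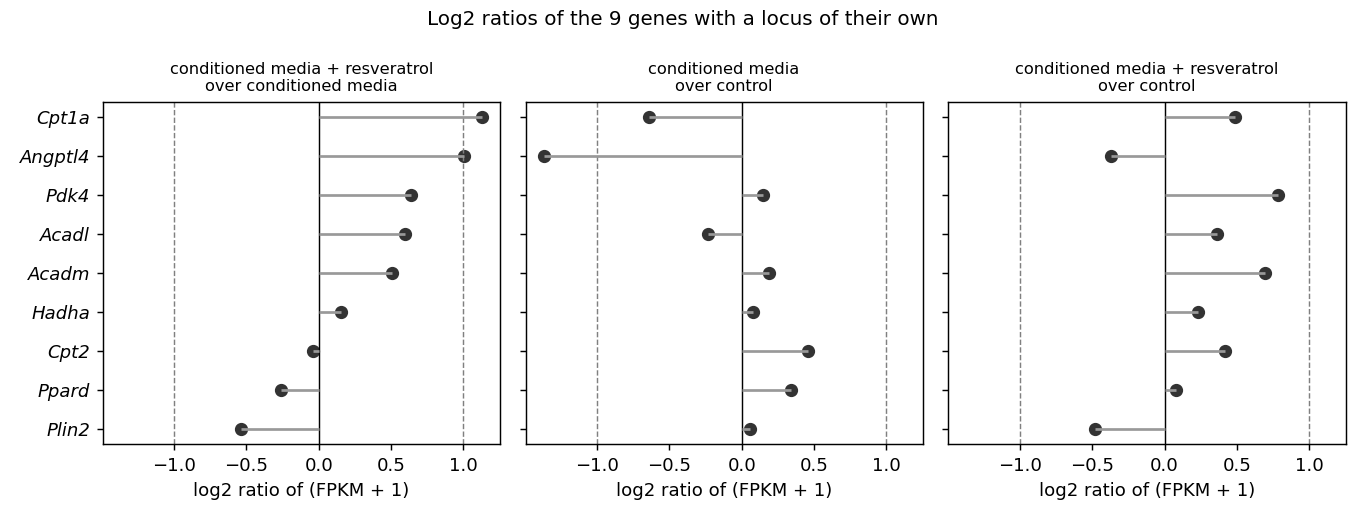
Log2 ratios of FPKM + 1 for the 9 genes in each of 3 comparisons, from 1 library per group; dashed lines mark the size rule at -1 and 1. Cpt1a at 1.13 and Angptl4 at 1.00 reach the line in the left panel, Angptl4 at -1.37 passes it in the middle panel, and no gene does in the right panel.

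Ratios between genes within a library do not depend on how libraries are scaled to each other. Cpt1a over Cpt2, the outer over the inner carnitine palmitoyltransferase, was 2.04 with resveratrol, 0.884 in conditioned media and 1.96 in control. Conditioned media was the one library with less Cpt1a than Cpt2. Angptl4 over Plin2 was 1.295 with resveratrol, 0.437 in conditioned media and 1.20 in control. In both ratios conditioned media stood apart from the other two libraries. Angptl4 over Lpl was 9.78 with resveratrol, 5.36 in conditioned media and 19.9 in control, so for this ratio resveratrol and control were apart as well. These ratios have Cpt1a or Angptl4 above the line, both lowest in conditioned media, and so partly repeat those values. Other ratios differed. Acadl over Acadm was 3.33 with resveratrol, 3.14 in conditioned media and 4.23 in control, and Hadha over Hadhb was 0.900, 1.06 and 1.00 in the same order. Among the pyruvate dehydrogenase kinases, Pdk1 made up 49.8% of the summed FPKM of Pdk1 to Pdk4 with resveratrol, 52.6% in conditioned media and 52.9% in control. The share of Pdk4 was 17.6% with resveratrol, 9.83% in conditioned media and 11.4% in control, and that of Pdk3 was 17.7% with resveratrol, 27.3% in conditioned media and 26.3% in control. Of the sum of the long-chain, medium-chain and very long-chain dehydrogenase genes, Acadl made up 63.3% with resveratrol, 58.9% in conditioned media and 64.9% in control. That sum was 285 FPKM with resveratrol, 203 FPKM in conditioned media and 216 FPKM in control.

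**Figure D3:**
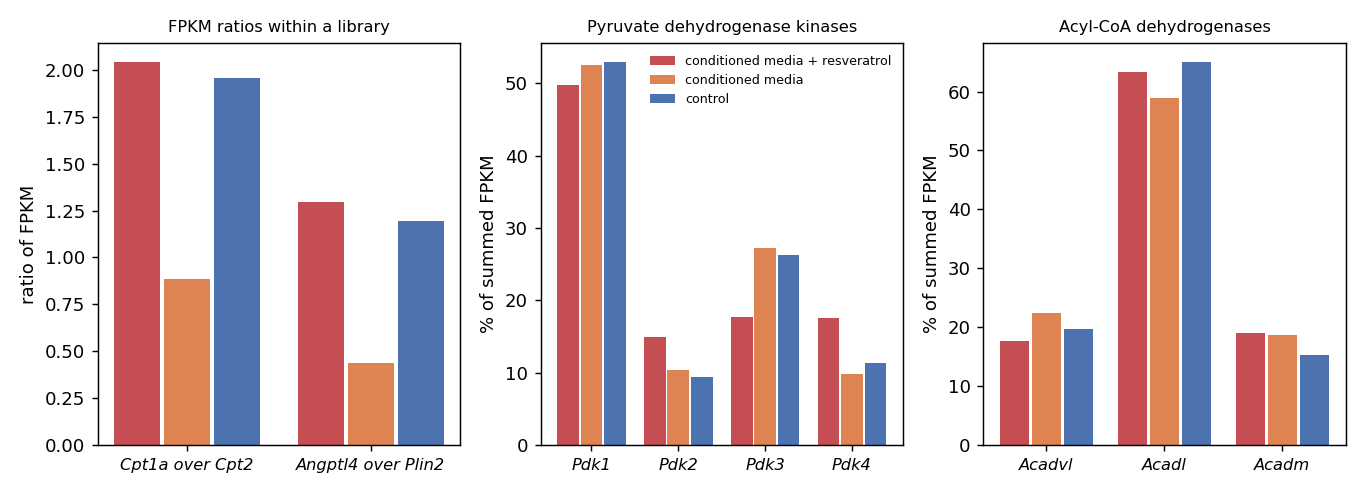
Left, FPKM ratios of Cpt1a over Cpt2 and of Angptl4 over Plin2; middle and right, share in percent of the summed FPKM of 4 pyruvate dehydrogenase kinase genes and of 3 acyl-CoA dehydrogenase genes, each bar 1 library. Both ratios are lowest in conditioned media, at 0.884 and 0.437, and the Pdk4 share is highest with resveratrol, at 17.6%.

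The wider pathway was read from 9 lists with 108 further genes, of which 84 had a locus of their own and a mean of at least 1 FPKM. The other genes of mitochondrial beta-oxidation were mostly on the higher side with resveratrol. Of 12 measured, 10 had ratios above 0 over conditioned media, with a median of 0.27, and the authors' deposited table calls 9 of them higher and 0 lower, although 0 passed the size rule. Over all loci 52.5% of ratios were above 0, and the shares of tested loci that the authors' deposited table calls are 34.1% for higher and 29.5% for lower. The count of 10 was the same after rescaling to TPM, scaling to loci longer than 200 bases and centring. These shifts were too small to change it. They took the list median no lower than 0.215, and the smallest ratio above 0 was 0.13, for Eci1. For conditioned media over control, 7 of 12 were above 0, with a median of 0.05. That count depends on the scaling. It was 11 of 12, with a median of 0.22, after rescaling to TPM, where the median over all loci was 0.14. After scaling to loci longer than 200 bases it was 4 of 12, with a median of -0.04, beside -0.09 over all loci. Hadh, which encodes a hydroxyacyl-CoA dehydrogenase for shorter chains, stood at 62.8 FPKM with resveratrol, 39.4 FPKM in conditioned media and 25.7 FPKM in control. It was higher by the size rule for resveratrol over control (log2 ratio 1.26), and Hadh over Hadha within a library was 1.16 with resveratrol, 0.812 in conditioned media and 0.559 in control.

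Carnitine shuttle and acyl-CoA synthetase genes were divided. Of 8 measured, 4 had ratios above 0 for resveratrol over conditioned media and 4 for conditioned media over control, with medians of 0.03 and 0.02 and 0 past the size rule. Acsl4, an acyl-CoA synthetase with a preference for arachidonic acid, had the largest ratio of them, at 88.0 FPKM with resveratrol, 52.4 FPKM in conditioned media and 47.0 FPKM in control. Of 12 peroxisomal genes, 8 were above 0 for resveratrol over conditioned media (median 0.08) and 9 for conditioned media over control (median 0.24), and 0 passed the size rule. Over all loci, 52.5% and 48.7% of ratios were above 0 in these comparisons, with medians of 0.03 and -0.01. Crot, which attaches carnitine to medium-chain acyl groups for export from peroxisomes, was at 26.0 FPKM with resveratrol, 22.0 FPKM in conditioned media and 15.2 FPKM in control.

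Genes of the PPAR receptors, their RXR partners and cofactors had medians of 0.12 for resveratrol over conditioned media and 0.08 for conditioned media over control over 11 measured genes, with 0 past the size rule. The medians over all loci were 0.03 and -0.01. Nrip1, a corepressor of nuclear receptors, was at 8.82 FPKM with resveratrol, 5.14 FPKM in conditioned media and 4.34 FPKM in control. Ppara was below 0.1 FPKM in every library and Pparg was at 2.32 FPKM with resveratrol, 3.66 FPKM in conditioned media and 2.48 FPKM in control, so Ppard was the most abundant of the 3 PPAR genes in every library. The other PPAR target genes did not move as a block. Of 15 listed, 7 were measured, and their medians were 0.12 for resveratrol over conditioned media and -0.30 for conditioned media over control. Vldlr, the very low density lipoprotein receptor, stood at 3.45 FPKM with resveratrol, 13.9 FPKM in conditioned media and 5.84 FPKM in control, and passed the size rule in both comparisons (-1.74 and 1.12). Its conditioned media value was thus the highest where those of Angptl4 and Cpt1a were the lowest. Slc27a1, a fatty acid transport protein, was at 8.36 FPKM with resveratrol, 13.8 FPKM in conditioned media and 24.7 FPKM in control and lower by the size rule for resveratrol over control (-1.46). In that comparison the list median was -0.41, with 2 of the 7 above 0. Over all loci the median was 0.00, with 50% above 0, and the median of the 9 genes was 0.36. Plin5, a droplet protein of oxidative tissue, was listed at 0 in all 3 libraries.

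Of 11 genes of lipid droplets and triglyceride turnover, 7 had ratios above 0 for resveratrol over conditioned media, as did 52.5% of all loci. By the size rule 2 were lower (4.97% of all loci) and 0 higher (1.53% of all loci). G0s2, an inhibitor of the triglyceride lipase Pnpla2, stood at 10.1 FPKM with resveratrol, 34.3 FPKM in conditioned media and 62.4 FPKM in control, with a log2 ratio of -1.67 over conditioned media. Mgll, monoacylglycerol lipase, stood at 1.57 FPKM with resveratrol, 7.04 FPKM in conditioned media and 8.26 FPKM in control, with a ratio of -1.64 in the same comparison. Both were lowest with resveratrol, as was Plin2, but Hilpda, which encodes a droplet protein that inhibits Pnpla2, stood at 49.5 FPKM with resveratrol, 34.5 FPKM in conditioned media and 41.0 FPKM in control. Dgat2, which catalyses the last step of triglyceride synthesis, stood at 8.08 FPKM with resveratrol, 12.6 FPKM in conditioned media and 2.67 FPKM in control and was higher by the size rule for conditioned media over control (1.89) and for resveratrol over control (1.31). The list medians were 0.03 for resveratrol over conditioned media and -0.08 for conditioned media over control.

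The remaining lists held few genes past the size rule. Of 11 genes of pyruvate dehydrogenase and its regulators, 8 were above 0 for resveratrol over conditioned media, as were 52.5% of all loci. Their median was 0.17, beside 0.03 over all loci. The authors' deposited table calls 7 of them higher and 2 lower there, where it calls 34.1% of tested loci higher and 29.5% lower. For resveratrol over control it also calls 7 higher and 2 lower, beside 34.1% of tested loci in each direction. There were 6 above 0 for conditioned media over control (median 0.02), beside 48.7% of all loci (median -0.01). Pdk2 was at 14.6 FPKM with resveratrol, 11.2 FPKM in conditioned media and 7.94 FPKM in control. Malonyl-CoA and AMPK genes had medians of -0.14 and 0.05 over 9 genes, and Prkag3, the AMPK subunit found mainly in skeletal muscle, was at 7.96 FPKM with resveratrol, 11.7 FPKM in conditioned media and 17.5 FPKM in control (-1.04 for resveratrol over control, lower by the size rule). Of 3 measured regulators of lipoprotein lipase and related factors, Angptl6 was at 6.33 FPKM with resveratrol, 6.37 FPKM in conditioned media and 3.28 FPKM in control. Gpihbp1, of the same list but not among the measured genes, was listed at 0. Lpl itself was at 7.47 FPKM with resveratrol, 6.71 FPKM in conditioned media and 4.75 FPKM in control. Over all 84 genes, 0 were higher and 3 lower by the size rule for resveratrol over conditioned media, 2 higher and 0 lower for conditioned media over control, and 2 higher and 4 lower for resveratrol over control. The shares of all loci were 1.53% higher and 4.97% lower, 1.98% and 0.751%, and 3.6% and 5.25% in these comparisons. Under another scaling, TPM, loci longer than 200 bases or centring, some list medians changed sign. For conditioned media over control these were 7 of the 9 lists, all but the peroxisomal genes and the other PPAR targets. For resveratrol over conditioned media they were 2 lists, the carnitine and droplet lists. The median over all loci for conditioned media over control shifted as well, to 0.14 with TPM and -0.09 with loci longer than 200 bases.

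**Figure D4:**
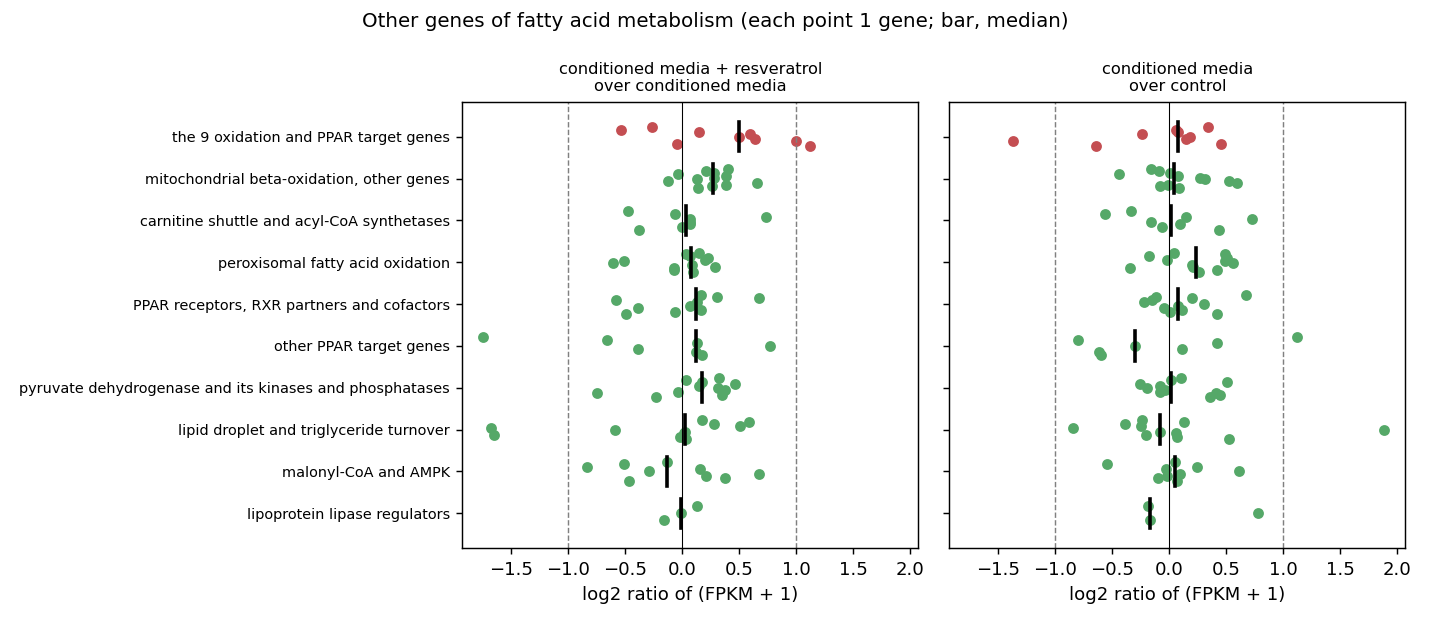
Log2 ratios of FPKM + 1 for the 9 genes (top row) and for the measured genes of 9 lists, 1 point per gene, with the median as a bar and the size rule as dashed lines; left, resveratrol over conditioned media; right, conditioned media over control. The median of the 9 genes is 0.50 on the left and 0.08 on the right, and that of the other mitochondrial genes 0.27 and 0.05.

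The genes most like a member over the 3 libraries were found by the distance between their log2 ratios for resveratrol over conditioned media and for conditioned media over control, among 6746 other loci with 1 symbol and a mean of at least 10 FPKM. Nearest to Angptl4 were Snora65, a small nucleolar RNA, at a distance of 0.03, then Grtp1 at 0.15 and Hsph1, a heat shock protein gene, at 0.17. Hsph1 stood at 33.2 FPKM with resveratrol, 18.1 FPKM in conditioned media and 47.6 FPKM in control. For Pdk4 the nearest were Ptp4a1, Fnip1 and Inpp5k, at distances of 0.02 to 0.03, and for Plin2 Nup37, Epha2 and Arhgef25, at 0.02 each. With 3 libraries such likeness is easily reached, and it is a description of these libraries.

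The labelled cell type was checked with marker genes. Of 11 myotube markers, 10 had a locus of their own and all 10 were above 1 FPKM in at least 1 library. Their summed level was 4818 FPKM with resveratrol, 3216 FPKM in conditioned media and 3399 FPKM in control, with Acta1, skeletal actin, and Des, desmin, the most abundant. Of the 10, 9 were highest with resveratrol, and Ckm, muscle creatine kinase, was lowest there, at 43.2 FPKM with resveratrol, 56.3 FPKM in conditioned media and 60.8 FPKM in control. Of 9 adipocyte markers, 4 were listed at 0 in all libraries (Lep, Retn, Cfd and Pck1) and 8 stayed under 1 FPKM, and their sum was 2.57 FPKM with resveratrol, 2.84 FPKM in conditioned media and 2.34 FPKM in control. The 5 fibroblast markers summed to 1174 FPKM with resveratrol, 2117 FPKM in conditioned media and 1837 FPKM in control, mostly Col1a1 and Col1a2, which myoblasts also express. Of them, 0 were highest with resveratrol and 3 were lowest there, Col1a1, Col1a2 and Thy1, the last under 0.1 FPKM throughout. Dcn and Pdgfra were lowest in control, at 27.8 and 4.98 FPKM, beside 43.6 and 6.98 FPKM with resveratrol. The 5 satellite and reserve cell markers summed to 313 FPKM with resveratrol, 242 FPKM in conditioned media and 191 FPKM in control, with Sdc4 and Cd34 the most abundant. Of these 5, 2 were highest with resveratrol, Sdc4 and Vcam1, and 2 were lowest there, Pax7 and Myf5, the last at 2.69 FPKM with resveratrol, 9.23 FPKM in conditioned media and 10.9 FPKM in control. The 5 markers of cycling cells were each lowest with resveratrol and summed to 38.8 FPKM with resveratrol, 161 FPKM in conditioned media and 126 FPKM in control, with Top2a and Ccnb1 the most abundant. The summed myotube markers were thus highest and the summed cycling markers lowest in the library where Cpt1a, Acadl, Acadm, Hadha and Pdk4 were highest, and their part in these values was not tested. In bulk libraries, more cells of a type and more RNA of a gene per cell cannot be told apart.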

How the data were processed

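Gene expression was measured by RNA sequencing in 3 libraries of C2C12 myotubes, 1 for each medium. Samples were grouped by their treatment labels. Per the submitters' processing notes, reads were handled with FastQC 0.69, TopHat2 2.1.0, Trim Galore 0.4.3.1, Bowtie, Cuffdiff 2.2.1.3 and Cufflinks 2.2.1.0 on the mm10 build. No source used here states the strand setting, the annotation or how libraries were scaled to each other. Per the file headers, the deposited table is Cuffdiff's gene output with FPKM for each library, computed by the authors. It also holds the authors' log2 fold change without pseudocount, a test statistic (score), and p-values and q-values, with calls at a q-value below 0.05. FPKM hold no counts, so depth is unknown.

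Starts were converted to 1-based positions. Log2 ratios were computed as log2((FPKM + 1)/(FPKM + 1)) with Python 3.11.15 and pandas 2.3.3. With 1 library per group no test was made. The size rule (absolute log2 ratio of 1 or more, mean of 1 FPKM or more) was checked on simulated data for its computation, not for the error of a library. Alternatives were other pseudocounts, rescaling, centring, filters, thresholds and the authors' calls. Exon overlaps came from GENCODE M21 and promoters from RefSeq.

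The members and lists were chosen with earlier results of these data known. All members are named. From each list the text names up to 4 genes past the size rule, or else the 1 with the largest ratio. Hilpda, markers named singly, Cpt1c, Hadhb, Lpl, Pdk1 and Pdk3, the receptors Ppara and Pparg, and genes listed at 0 were named outside this rule, with their values known.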

Additional observations from a re-analysis of the deposited data

How the results depend on the processing

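The log2 ratios of the 9 genes were recomputed under 6 alternatives of pseudocount, scaling, centring and locus choice, giving 162 values. Of these, 133 moved by no more than 0.1 and 29 moved further. None that passed the size rule or was called in the authors' deposited table changed sign. The 133 include values that could not have moved further. Each symbol had 1 locus, so summing over loci changed nothing, and centring shifted ratios by no more than 0.03. The pair of genes higher by the size rule for resveratrol over conditioned media, Cpt1a and Angptl4, came to 0 at a pseudocount of 5. It came to 1 after rescaling to TPM, after scaling to loci longer than 200 bases and after centring. Summed FPKM hardly differed between these libraries, at 2956883 with resveratrol and 2953954 in conditioned media. TPM values were smaller than FPKM while the pseudocount stayed at 1, so here TPM acted mainly through the pseudocount. A threshold of 0.58 gave 4 higher in this comparison. That threshold gave 2 higher for resveratrol over control and 2 lower for conditioned media over control. The share of all loci past 0.58 was not computed, so these counts cannot be set against it. The authors' deposited table calls 6 higher and 2 lower for resveratrol over conditioned media, where it calls 34.1% and 29.5% of tested loci. It calls 6 and 2 for resveratrol over control (34.1% and 34.1% of tested loci). For conditioned media over control it calls 3 and 3 (25.8% and 29.9%). Loci of 200 bases or less held 78.4% of summed FPKM with resveratrol, 79.3% in conditioned media and 83% in control. The TPM scaling was thus set mostly by such short loci. It shifted the median over all loci to 0.14 for each comparison with control. With TPM the median of the 9 genes was 0.26 for conditioned media over control and 0.54 for resveratrol over control. Scaling to loci longer than 200 bases gave 0.21 for resveratrol over control and -0.01 for conditioned media over control, a change of sign. The same scaling shifted the median over all loci to -0.13 and -0.09 in these comparisons. It moves the 9 genes and all loci nearly alike, so it cannot test the distance between their medians. Single genes lay below the median of all loci, as did Angptl4 at -1.46 for conditioned media over control. With the joint Chkb,Cpt1b locus as a further member, an alternative chosen after seeing the data, the median for resveratrol over conditioned media was 0.33. Leaving out a replicate could not be done, and no paired analysis was possible because each group holds 1 library. Depth, and with it counting error, is unknown.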
